A study of Mus musculus with 20 samples.

Results

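The genes described here encode the proteins of the cytosolic ribosome. They were chosen by symbol: every protein-coding gene whose symbol begins with Rpl, Rplp or Rps followed by a digit, leaving out the S6 kinase genes (Rps6k) and any symbol with -ps. The rule found 85 genes among the 45706 gene identifiers of the deposited table, 52 with an Rpl or Rplp symbol (large subunit) and 33 with an Rps symbol (small subunit). It also takes in Rps19bp1, which encodes a protein that binds Rps19 and is not part of the ribosome, and 8 paralogs, near copies of another ribosomal protein gene. It leaves out genes whose symbols do not match, such as Rpsa, Fau and the ribosome scaffold gene Rack1, and 268 ribosomal protein pseudogene entries. Of the 85 genes, 83 had enough reads to be tested. Rpl10l, a paralog known from testis, had 0 reads in all 20 libraries, and Rpl39l, a paralog known from male germ cells, had too few.

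The cytosolic ribosome joins a small subunit, which reads the messenger RNA, to a large subunit, which forms the peptide bonds. Most of its proteins are needed in equal numbers, and many of their messages begin with a run of pyrimidines at the cap, the terminal oligopyrimidine (TOP) tract, through which the mTOR pathway controls their translation. In the bone marrow these genes are known from Diamond-Blackfan anaemia, in which the loss of a copy of a ribosomal protein gene impairs red-cell formation, and stem cells are known to make protein slowly.

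Messenger RNA was sequenced from 20 libraries of bone-marrow cells, sorted by flow cytometry from mice 8 weeks old on the C57BL/6 background. Hopx-wildtype (WT) mice gave 4 libraries of long-term haematopoietic stem cells (LT-HSC), 3 of type 2 multipotent progenitors (MPP2) and 4 of type 3 multipotent progenitors (MPP3). Hopx-knockout (KO) mice gave 3 libraries of each population; Hopx encodes a small homeodomain protein known not to bind DNA itself. The labels give neither the knockout allele, a Cre driver nor the animal behind a library, so p-values measure only the spread between these libraries, which may be technical in part. Each library held 11163345 to 15189909 reads in genes. Hopx had 0 reads in all 9 KO libraries and a normalized count of 11.01 to 61.2 in 10 of the 11 WT libraries, but it also had 0 reads in WT LT-HSC replicate 4. By the sum of their reads, the 15 LT-HSC markers made up 0.220 to 0.318% of reads in LT-HSC libraries, 0.0758 to 0.148% in MPP2 and 0.0720 to 0.139% in MPP3. WT MPP2 replicate 3 stood apart, with 1.24% of its reads on 12 lymphoid and B cell markers, against 0.00504 to 0.0119% in the other MPP2 libraries. Xist outnumbered 4 Y-linked genes in 2 of 3 libraries of each KO group and in 1 library of each WT group.

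The sequence around the transcription start was searched for runs of pyrimidines. Such a run need not begin at the cap, so it is not by itself a TOP tract. RefSeq start sites (GRCm38.p6) were matched for 65 of the 85 genes. A run of at least 8 bases of C or T, on the coding strand and within 20 bases of a start, was found in 30 of these 65 genes (46.2%) and in 4965 of all 27025 genes in the table (18.4%). The windows printed here run 15 bases to either side of the start, 5′ to 3′ on the coding strand, with the longest C or T run in capitals. Rpl7a, Rpl35, Rpl28 and Rps6 are shown for their long runs. Rps9, Rpl36al and Rpl3l are shown because the differences between populations described further on fell on them.
Rpl7a, chr2:26910792-26910821, plus strand: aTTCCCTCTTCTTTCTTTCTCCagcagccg
Rpl35, chr2:39005117-39005146, minus strand: cggccccgCCCTTTCCTCTTTCTCTCgaac
Rpl28, chr7:4792950-4792979, plus strand: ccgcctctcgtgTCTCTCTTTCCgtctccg
Rps6, chr4:86857353-86857382, minus strand: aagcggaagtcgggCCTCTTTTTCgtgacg
Rps9, chr7:3704026-3704055, plus strand: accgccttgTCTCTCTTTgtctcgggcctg
Rpl36al, chr12:69184053-69184082, minus strand: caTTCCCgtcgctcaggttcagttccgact
Rpl3l, chr17:24727811-24727840, plus strand: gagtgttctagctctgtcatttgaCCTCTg
The run was 21 bases in Rpl7a and 18 in Rpl35, 9 in Rps9, and 5 in the paralogs Rpl36al and Rpl3l. Other motifs were searched on both strands of the 300-base window from 250 bases before to 50 after the start. The ETS-type motif CCGGAAGT was present in 16.9% of the 65 genes and 4.31% of all genes, TATAAA in 10.8% and 15.7%, and CACGTG, the E-box bound by Myc, in 9.23% and 8.09%. A match is a description of these letters and no evidence that a factor binds.

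Together the 85 genes took a small and steady share of the reads counted in genes. Reads that aligned to several places were not counted, so the share does not measure the part of these messages in the RNA. They held 2.38 ± 0.163% of reads in genes (SD, n = 20), from 2.15% in WT MPP2 replicate 1 to 2.74% in KO MPP3 replicate 1. Among WT groups the mean share came to 2.37 ± 0.113% for LT-HSC (n = 4), 2.26 ± 0.160% for MPP2 (n = 3) and 2.30 ± 0.0855% for MPP3 (n = 4). In KO it was 2.47 ± 0.212% in LT-HSC, 2.36 ± 0.0716% in MPP2 and 2.57 ± 0.211% in MPP3 (n = 3 each). KO and WT libraries overlapped in all 3 populations. In bulk libraries like these, fewer cells of a type and less RNA per cell cannot be told apart. The ribosomal protein pseudogene entries held a further 0.642 to 0.835% of reads, and 230 of the 268 had at least 1 read.

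**Figure D1:**
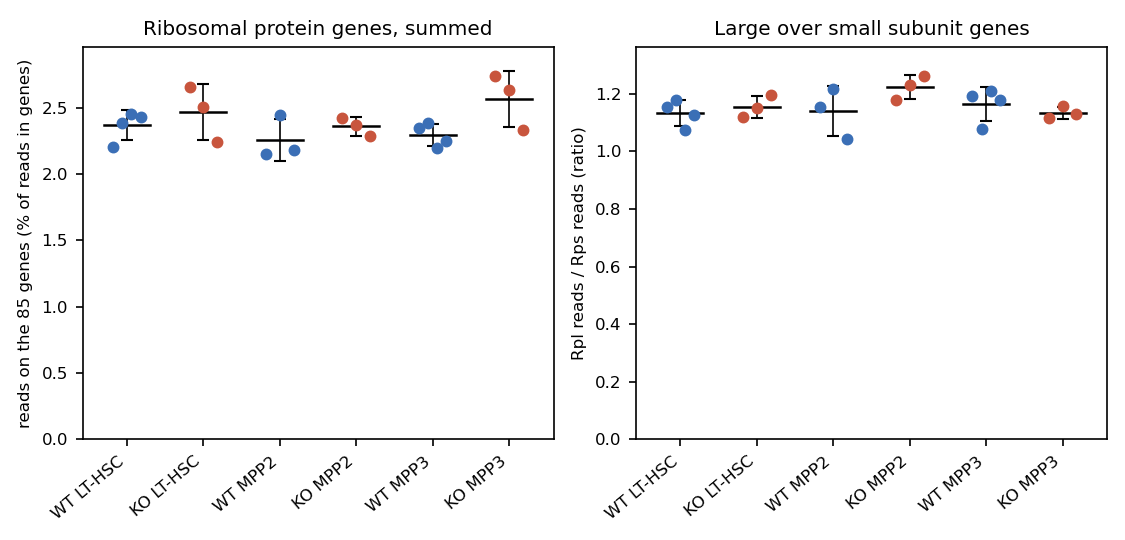
Share of reads in genes on the 85 ribosomal protein genes (left, percent) and the ratio of reads on Rpl and Rplp genes to reads on Rps genes (right), by group. Points are libraries (WT blue, KO red), lines are means and bars are SD. All 6 groups lie between 2.15% and 2.74%, and the lowest ratio, 1.04, belongs to a WT MPP2 library.

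Reads on large subunit genes exceeded those on small subunit genes in every library, by a ratio of 1.16 ± 0.0550 (SD, n = 20). The ratio differed with the library numbers in the labels. It was 1.04 to 1.079 in the 3 libraries numbered 52 to 54, which are all WT, and 1.12 to 1.26 in the other 17. What these number ranges stand for is not given in the labels.

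Levels per length differed widely among genes whose proteins are needed in equal numbers. In RPKM, reads scaled to the length of the principal transcript and to the reads in genes of the library, averaged over all libraries, Rpl32 stood highest at 2685, and others among the highest were Rps14 at 1949, Rplp1 of the stalk at 1336 and Rpl4 at 1256. The lowest were Rpl10l at 0, Rpl3l at 0.218, Rpl39l at 0.856, Rpl24 at 2.80 and Rpl23a at 3.29. Rpl24 and Rpl23a are ordinary parts of the large subunit. The 10 genes with most reads held 52.0% of all reads on the 85.

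Much of the sequence of these genes is shared with other genes, mainly pseudogenes, and the table counts no read that aligned to several places. Alignments that were not unique made up 52.6 to 57.8% of all entries per library. Of the 50-base stretches of a ribosomal protein transcript, a median of 46.7% occurred in no other gene's transcripts. The 22 genes under 25% had a median level of 37.4 RPKM, and the 15 genes with at least 75% had 162. Only 18.3% of the stretches of Rpl24 and 14.3% of those of Rpl23a were unique, against 100% for Rpl3l and Rpl39l. Across the 85 genes, which share the same libraries, level and unique share had a Spearman rho of 0.33. A low level of a gene with little unique sequence therefore cannot be read as a low amount of its message, while a difference between groups compares the same stretches. How far lost reads set these levels was not tested.

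**Figure D2:**
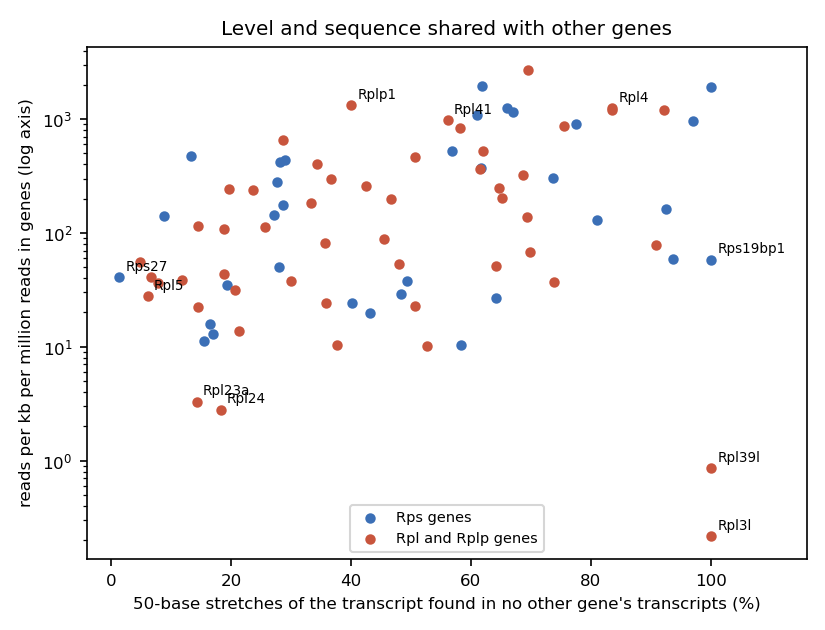
Level per length (RPKM, log axis) against the percentage of 50-base stretches of the transcript found in no other gene's transcripts, for the 84 ribosomal protein genes with reads. Rps genes are blue, Rpl and Rplp genes red. Rpl24 and Rpl23a lie low at 18.3% and 14.3% unique sequence, and Rpl3l and Rpl39l lie low at 100%.

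From library to library the ribosomal protein genes varied little. The median SD of log2 values within groups was 0.24 over the 83 tested genes, 0.67 over all 17160 genes tested and 0.28 over the 1806 genes at or above the median level of the 83. For 46 genes the highest library lay under 2-fold above the lowest. The steadiest was Rpl4, whose protein lines the tunnel through which the new chain leaves, with an SD of 0.085 and values from 23078 to 29093 normalized counts (reads divided by a size factor of the library). The widest SDs were those of Rpl39l (1.78), Rpl24 (1.69), Rpl3l (1.11), Rpl23a (0.99) and Rpl9 (0.64). Rpl24 ranged from 0 reads in KO MPP2 replicate 3 to 70 in WT MPP3 replicate 1. Group means of the 83 spread over a median of 0.29 log2 units, against 0.47 for the 1806 genes at or above their median level.

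**Figure D3:**
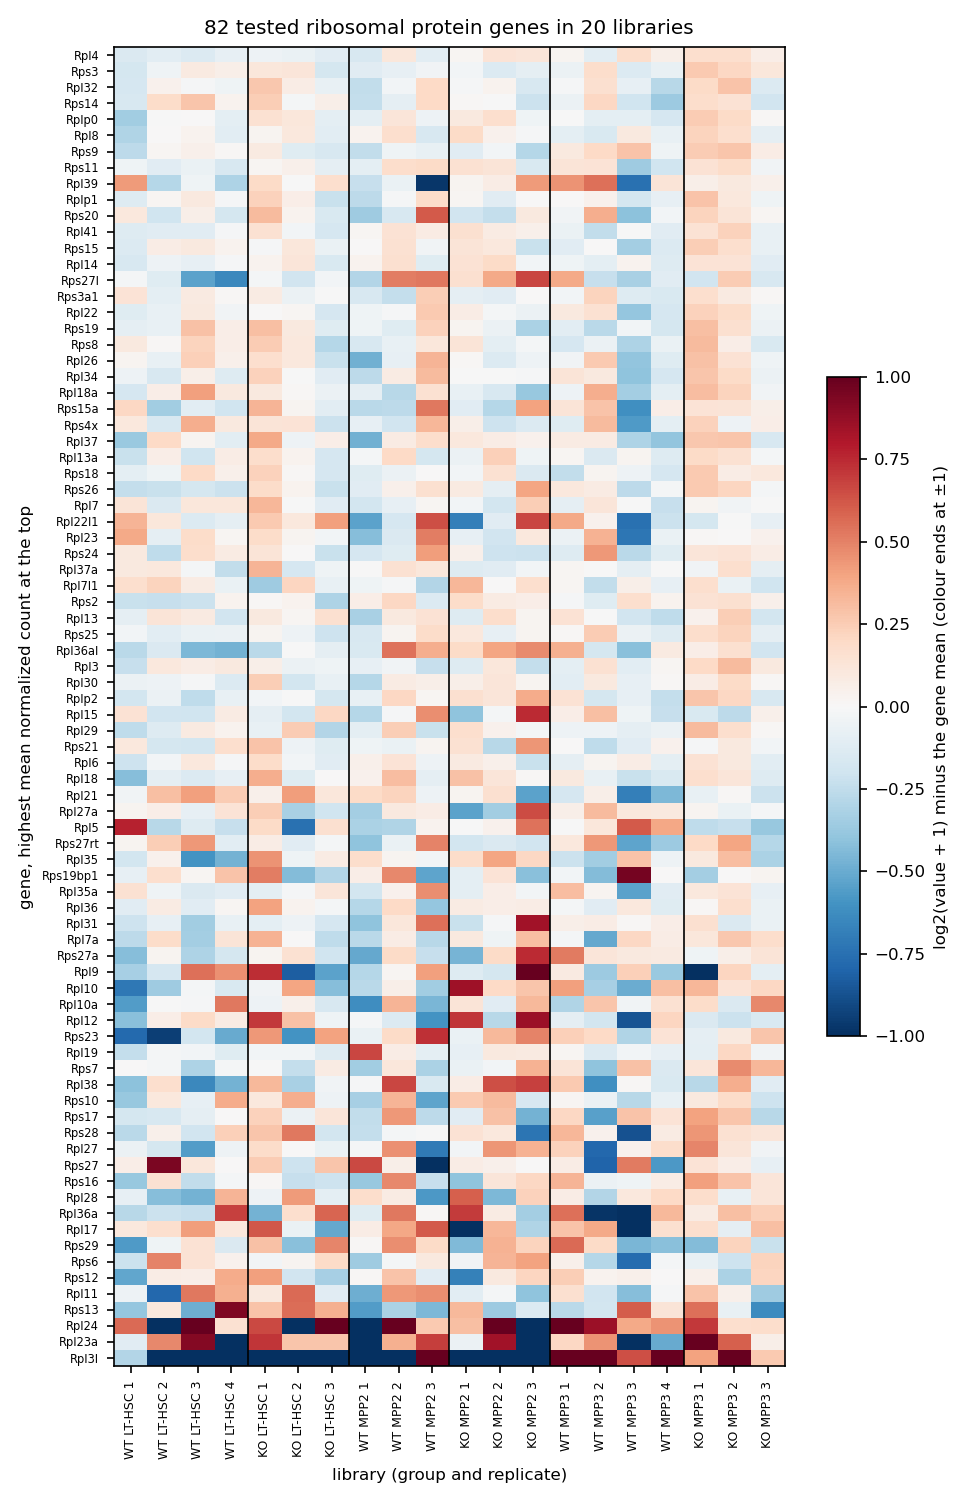
Normalized counts of tested ribosomal protein genes in 20 libraries (1 of the 83 is not shown), as log2(value + 1) minus the mean of the gene, with genes ordered by mean normalized count. Colours end at ±1, black lines separate the 6 groups, and most rows stay pale apart from genes with few reads at the bottom and Rpl3l in the last row.

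The knockout comparison addresses whether loss of Hopx changed expression within a population. No ribosomal protein gene passed in any of the 3 populations. In LT-HSC 0 of 83 were called (limma adjusted p under 0.05 over all 17160 genes), where 0.00583% of all genes were called, and 2 (2.41%) had an unadjusted p under 0.05, against 2.66% of all genes. In MPP2 0 were called, against 0.0117% of all genes, and 1 (1.205%) had an unadjusted p under 0.05, against 7.88% of all genes. In MPP3 0 were called, against 0.00583%, and 3 (3.61%) had an unadjusted p under 0.05, against 2.02% of all genes. Averaged over the populations 0 were called, against 0.0117%, with 2 (2.41%) at an unadjusted p under 0.05, against 5.03% of all genes. The knockout effect differed between populations for 0 genes, against 0% of all genes, with 0 at an unadjusted p under 0.05, against 3.07% of all genes. By edgeR, DESeq2 and voom 0 were also called in each of these comparisons. Over all 17160 genes DESeq2 called 21 in LT-HSC, 112 in MPP2, 22 in MPP3, 54 in the average and 8 for a differing effect. edgeR and voom called at most 1 gene in any of them. With so few of all genes called by limma, a count of 0 says little about the 83 by itself, and the intervals say more. In the average over populations the 95% interval of the log2 difference lay within ±1 for 80 of the 83 genes and within ±0.5 for 59, with a median half-width of 0.25.

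In each population most ribosomal protein genes had a positive difference, and none passed. In MPP3 70 of 83 had a positive log2 difference, with a median of 0.14, where 53.9% of all genes were positive with a median of 0.03. In LT-HSC 55 were positive with a median of 0.06, where 46.7% of all genes were positive with a median of -0.03. In MPP2 47 were positive with a median of 0.02, where 41.2% of all genes were positive with a median of -0.10. The median of the 83 thus lay above that of all genes in each population, MPP3 being no exception. In the average 65 were positive with a median of 0.08, where 43.1% of all genes were positive with a median of -0.05. Leaving out 1 library at a time, the median ranged from 0.09 to 0.21 in MPP3, from 0.01 to 0.11 in LT-HSC and from -0.07 to 0.11 in MPP2, where it turned negative without WT MPP2 replicate 1. These genes share the libraries and the scaling, so their signs are not independent. Among the MPP3 libraries numbered 81 to 88 the summed share was 2.33% in the KO library and 2.20 and 2.25% in the WT libraries, and among those numbered 115 to 120 it was 2.63% in KO and 2.35% in WT. The highest KO MPP3 share came from the range 101 to 106, which holds no WT MPP3 library. In LT-HSC the ranges differed in direction, with 2.66 and 2.51% in KO and 2.20% in WT among numbers 101 to 106, and 2.24% in KO and 2.39% in WT among numbers 115 to 120. In MPP2 they differed in direction too, with 2.43% in KO and 2.15% in WT among numbers 101 to 106, and 2.37% in KO and 2.44% in WT among numbers 115 to 120.

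**Figure D4:**
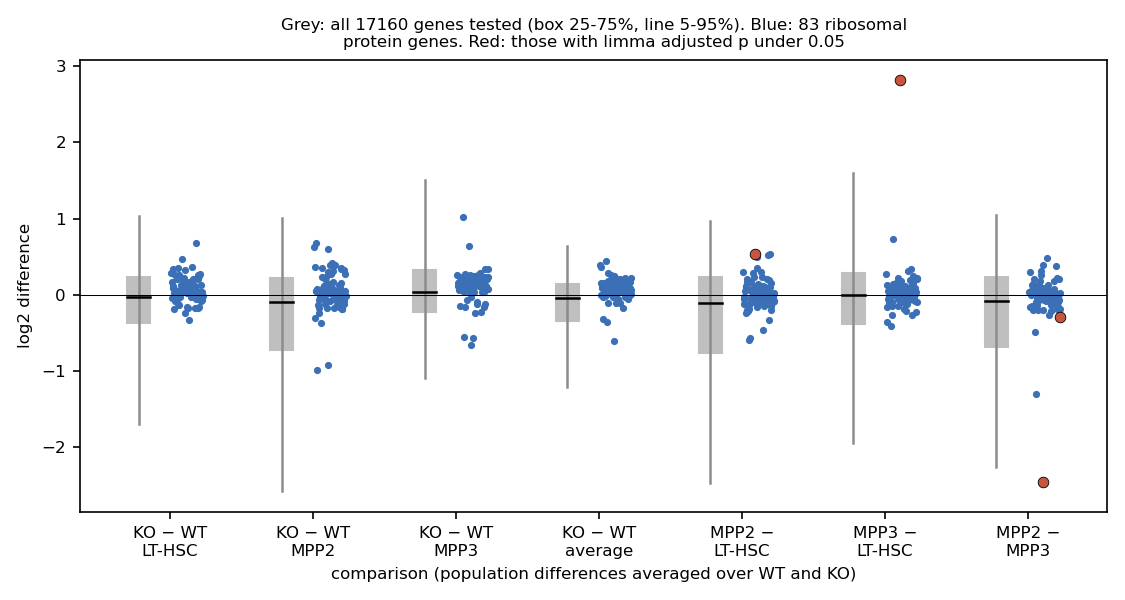
Log2 differences of the 83 tested ribosomal protein genes (blue points, those called by limma in red) in 7 comparisons, beside all genes tested in grey (box for the middle 50%, line from the 5th to the 95th percentile, black bar for the median). In the 4 genotype comparisons no point is called, and in the 3 population comparisons the called genes are Rpl36al, Rpl3l, and Rps9 with Rpl3l.

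Ranked by p within each direction, with none passing, the first genes were Rps23 (0.68), Rpl35 (0.47) and Rplp0 (0.17) higher and Rpl7l1 (-0.17), Rpl9 (-0.34) and Rps27rt (-0.17) lower in KO LT-HSC. In KO MPP2 they were Rpl39 (0.60), Rpl10 (0.63) and Rpl12 (0.68) higher and Rpl17 (-0.99), Rpl37a (-0.18) and Rpl21 (-0.24) lower. In KO MPP3 they were Rplp0 (0.24), Rps3 (0.22) and Rps15 (0.26) higher and Rpl5 (-0.57), Rps19bp1 (-0.23) and Rpl3l (-0.66) lower.

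The stalk gene Rplp0, whose protein anchors the acidic stalk that recruits elongation factors, had the smallest p in the average. In KO MPP3 its normalized counts were 17952, 17215 and 15191, and in WT MPP3 15078, 14116, 14091 and 13424. The KO libraries were all above the WT libraries there, while in LT-HSC and in MPP2 they overlapped. The log2 difference was 0.24 in MPP3 (SE 0.10, limma adjusted p = 1) and 0.17 in the average (SE 0.06, limma adjusted p = 0.857), so neither passed. All 3 stalk genes had a positive average difference, from 0.07 in Rplp1 to 0.17 in Rplp0, and none was called.

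Rpl10, an X-linked gene whose protein completes the large subunit late in assembly, had a mean of 444 ± 107 normalized counts in KO (SD, n = 9) and 339 ± 82.4 in WT (n = 11). The log2 difference in the average was 0.39 (SE 0.17, limma adjusted p = 0.857). Rpl39, also X-linked, reached 9689.8, 10011 and 12787 in KO MPP2 against 8103, 9072 and 4839 in WT MPP2. Its difference of 0.60 there did not pass (SE 0.28, limma adjusted p = 0.628), and the lowest value was that of WT MPP2 replicate 3. Of the 4 X-linked genes, Rpl10, Rpl36a and Rpl39 had average differences of 0.25 to 0.39, and Rps4x had -0.00058. Libraries with more Xist than Y-linked reads were the majority of KO and the minority of WT in every population, and their part in these differences was not tested.

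Rpl5 and Rpl11 encode proteins of the 5S particle, which bind Mdm2 when free of the ribosome and so link ribosome assembly to p53. In MPP3 Rpl5 was 620.2, 629.8 and 571 in KO, below all WT libraries at 739, 799, 1135 and 971. The difference of -0.57 did not pass (SE 0.28, limma adjusted p = 1), and in MPP2 it had the opposite sign, at 0.39. Of the 83 genes Rpl5 came first in the limma test for a knockout effect that differs between populations, without passing (limma adjusted p = 0.9999). Only 6.16% of the 50-base stretches of Rpl5 are unique, and the gene overlaps Fam69a on the opposite strand, with a mean of 1691 reads, so that its counts are uncertain. Rpl11 had an average difference of -0.01 (SE 0.24) and a mean level of 10.4 RPKM.

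The counterparts of 20 of the genes are mutated in Diamond-Blackfan anaemia. None was called in KO against WT, and the median of their average differences was 0.07, against 0.08 over the 83 genes. Rps19, the gene most often mutated, had 5569.85 ± 769 normalized counts in KO (SD, n = 9) and 5305 ± 638 in WT (n = 11), a log2 difference of 0.06 (SE 0.08). Rps14, lost in the 5q- syndrome, differed by 0.04 (SE 0.09), and Rps6, the target of S6 kinase, by 0.17 (SE 0.20). Rpl22, known for its part in T cell development, differed by 0.04 (SE 0.08). Rpl3 of the large subunit differed by 0.07 (SE 0.08), and Rps27a, which is made as a fusion with ubiquitin, by 0.13 (SE 0.16). Rpl38, known in the mouse for the translation of Hox messages, differed by 0.25 (SE 0.19). None of these 7 passed.

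Between the populations, averaged over genotypes, 3 ribosomal protein genes were called, and the median of the 83 lay near 0. In MPP2 against LT-HSC 1 of 83 was called, where 7.32% of all genes were, and 6 (7.23%) had an unadjusted p under 0.05, against 22.8% of all genes. In MPP3 against LT-HSC 1 was called, where 7.4% of all genes were, and 5 (6.02%) had an unadjusted p under 0.05, against 17.9% of all genes. In MPP2 against MPP3 2 were called, where 6.88% of all genes were, and 5 (6.02%) had an unadjusted p under 0.05, against 20.5% of all genes. The median log2 differences of the 83 were 0.00046, 0.04 and -0.01. The median size of the difference, regardless of sign, was 0.098, 0.082 and 0.076, against 0.42, 0.33 and 0.39 for all genes tested. For the genes at or above the median level of the 83 it was 0.23, 0.15 and 0.19. These 3 comparisons share libraries with one another.

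Rpl3l, a paralog of Rpl3 known from heart and skeletal muscle, was detected mainly in MPP3. It had 23, 13, 3 and 5 reads in the WT MPP3 libraries and 2, 26 and 2 in the KO MPP3 libraries. Among the 7 LT-HSC libraries 1 read was found, in WT LT-HSC replicate 1, and among the 6 MPP2 libraries 5 reads, all in WT MPP2 replicate 3. All 7 MPP3 libraries thus had reads, and 5 of 6 MPP2 libraries had none. With 74 reads in MPP3 and 1 in LT-HSC the ratio per read in genes was 74.5, with a 95% counting interval of 12.97 to 2983 that covers counting error only. The difference on the log2(value + 1) scale was 2.81 (SE 0.67, limma adjusted p = 0.0116) between MPP3 and LT-HSC, and it was 3.03 in WT (limma adjusted p = 0.0616) and 2.60 in KO (limma adjusted p = 0.300) taken alone.

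Rpl3l passed the filter on low values through its MPP3 reads, the group where it is high, so its calls are no support beyond the reads themselves. Without the filter 30143 genes were tested, which cannot change the log2 difference of a gene. Between MPP3 and LT-HSC the limma adjusted p was then 0.0117, and between MPP2 and MPP3 it was 0.0463. These values rest on the same reads and add no support.

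The level of Rpl3l remained far under that of its partner. Rpl3 had a mean of 2194 ± 237 normalized counts in MPP3 (SD, n = 7), where Rpl3l had 10.7 ± 10.3. The log2 ratio of Rpl3l to Rpl3, each plus 1, was -8.11 ± 1.41 in MPP3 and -10.88 ± 0.46 in LT-HSC, a difference of 2.76 (exact permutation test, two-sided, p = 0.000583, adjusted over 18 tests of 6 paralog pairs p = 0.0105). With a pseudocount of 16 that difference was 0.56 and no longer passed (exact permutation test, adjusted p = 0.199). MPP2 was lower than MPP3 by 2.47 on the log2 scale for Rpl3l (SE 0.69, limma adjusted p = 0.0379), a call lost on the recovered reads with edgeR (adjusted p = 0.0968 on all libraries and 0.238 on 18), with a pseudocount of 16 (-0.56, limma adjusted p = 0.132) and without any of WT MPP2 replicates 1 and 2, KO MPP2 replicates 1 and 3 or KO MPP3 replicate 2 (limma adjusted p from 0.0597 to 0.0987). Without WT MPP2 replicate 3 it was 2.93 lower (limma adjusted p = 0.00955). Without WT MPP3 replicate 1 or WT MPP3 replicate 2, Rpl3l had too few reads to be tested. The call of Rpl3l between MPP3 and LT-HSC was made in 28 of the 30 settings that gave a value, and it was lost with a pseudocount of 16 (0.63, limma adjusted p = 0.0700) and with edgeR on 18 libraries (5.40, adjusted p = 0.0596).

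The summed shares of myeloid progenitor markers and of lymphoid markers were also higher in MPP3 than in LT-HSC. Of 12 myeloid progenitor markers 11 were called higher in MPP3 than in LT-HSC, a comparison in which 7.4% of all genes were called. Their summed share was 0.149 to 1.14% of reads in MPP3 and 0.00870 to 0.0277% in LT-HSC, where Ctsg had 0 reads. Of 12 lymphoid and B cell markers 10 were tested and 5 were called higher, with shares of 0.09997 to 0.290% in MPP3 and 0.00637 to 0.0293% in LT-HSC, where all 12 had reads. In MPP2 the myeloid share ran from 0.0105 to 0.514%, and it reached 0.192% in KO MPP2, where no library had Rpl3l reads. WT MPP2 replicate 3, the only MPP2 library with Rpl3l reads, also had the highest lymphoid share of all 20 libraries. With 5 Rpl3l reads in MPP2, all in that library, no relation to either share can be judged. The part of these cell differences in the Rpl3l reads was not tested.

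**Figure D5:**
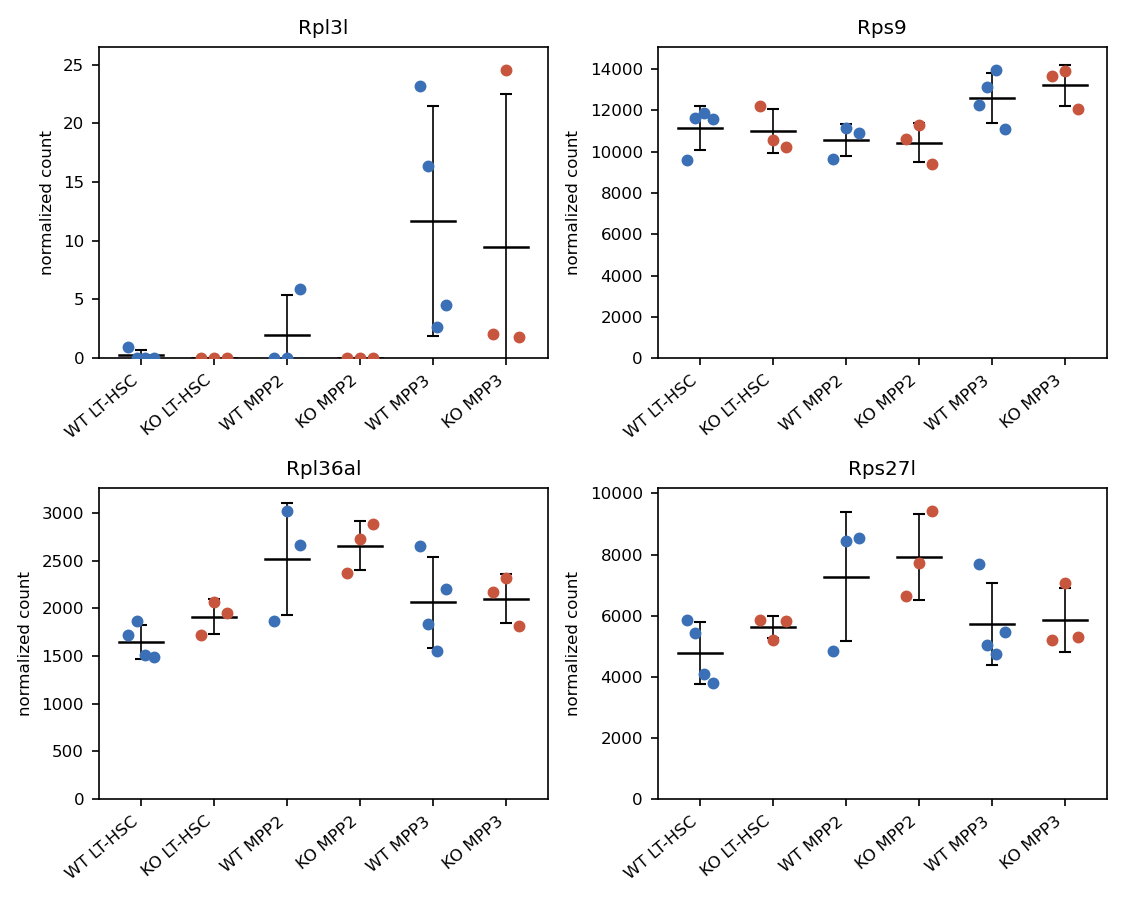
Normalized counts of Rpl3l, Rps9, Rpl36al and Rps27l by group. Points are libraries (WT blue, KO red), lines are means and bars are SD, cut at 0. Rpl3l is above 0 in all 7 MPP3 libraries, Rps9 is highest in MPP3, and Rpl36al and Rps27l are highest in MPP2, with WT MPP2 replicate 1 low in both.

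Rps9, which encodes a protein of the small subunit, was lower in MPP2 than in MPP3. The WT MPP2 libraries had 9668, 11137 and 10909.7 normalized counts, and the KO MPP2 libraries had 10606, 11273 and 9421. The WT MPP3 libraries had 12245, 13139, 13959.6 and 11115, and the KO MPP3 libraries had 13664, 13919 and 12072. WT MPP2 replicate 2 and KO MPP2 replicate 2 lay above the lowest MPP3 library, WT MPP3 replicate 4, and below all other MPP3 libraries. The log2 difference was -0.30 (SE 0.08, limma adjusted p = 0.0343), with -0.25 in WT (limma adjusted p = 0.462) and -0.34 in KO (limma adjusted p = 0.134) taken alone. LT-HSC lay between, at 11097 ± 970 (SD, n = 7), and MPP3 exceeded it by 0.22 without passing (SE 0.08, limma adjusted p = 0.111). The call was lost without any of 8 libraries (limma adjusted p from 0.0529 to 0.0974), which were WT MPP2 replicates 1 and 2, KO MPP2 replicates 1 and 3, WT MPP3 replicates 2 and 3 and KO MPP3 replicates 1 and 2. The value of Rps9 then ranged from -0.32 to -0.26, and the call was also lost without the libraries numbered 52 to 54 (-0.30, limma adjusted p = 0.0643) and with edgeR on 18 libraries (-0.33, adjusted p = 0.0872).

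Rpl36al, a paralog of the X-linked Rpl36a, was higher in MPP2 than in LT-HSC. It had 1869, 3018 and 2660.4 normalized counts in WT MPP2 and 2369.8, 2721 and 2879.7 in KO MPP2. In LT-HSC it had 1720, 1871, 1515 and 1490.2 in WT and 1716, 2069 and 1950.5 in KO. In KO the MPP2 libraries all exceeded the LT-HSC libraries, while in WT the lowest MPP2 library fell just below the highest LT-HSC library. The log2 difference was 0.53 (SE 0.14, limma adjusted p = 0.0270), with 0.59 in WT (limma adjusted p = 0.172) and 0.47 in KO (limma adjusted p = 0.241) taken alone. The call was lost when values were scaled by the reads outside the 85 genes (0.45, limma adjusted p = 0.0511), which lowered the median of the 83 from 0.00046 to -0.08. It was also lost without any of WT MPP2 replicate 2, KO MPP2 replicate 3, WT LT-HSC replicates 3 and 4 or KO LT-HSC replicates 1 and 3 (limma adjusted p from 0.0523 to 0.0821), without the libraries numbered 52 to 54 (0.48, limma adjusted p = 0.0811) and with edgeR on 18 libraries (0.47, adjusted p = 0.0776).

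Rps27l, a paralog of Rps27 known as a target of p53, followed the same order and did not pass. Its mean was 7604 ± 1644 normalized counts in MPP2 (SD, n = 6), 5152 ± 871 in LT-HSC and 5792 ± 1127 in MPP3 (n = 7 each). In MPP2 its lowest, median and highest values were 4842, 8083 and 9424, and in LT-HSC 3787, 5442 and 5861. WT MPP2 replicate 1 fell inside the LT-HSC range and the other 5 MPP2 libraries lay above it. The difference from LT-HSC was 0.53 (SE 0.16, limma adjusted p = 0.0527), and the gene was called in 10 of 33 settings, DESeq2 and voom among them.

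No other pair of a paralog and its partner passed. The log2 ratio of Rps27l to Rps27 was 0.89 higher in MPP2 than in LT-HSC (exact permutation test, two-sided, p = 0.0355, adjusted p = 0.213). Of 20 leave-one-out runs it passed in 1, without WT MPP2 replicate 1 (1.17, exact permutation test, adjusted p = 0.0114). The difference was smallest, 0.54, without WT MPP2 replicate 3. That library had the highest log2 ratio, 7.24, with only 47 reads of Rps27. The ratio of Rpl22l1 to Rpl22 was 0.31 lower in MPP3 than in LT-HSC (exact permutation test, two-sided, p = 0.0484, adjusted p = 0.218). Rpl22l1 had 3189.7 ± 455 normalized counts in LT-HSC, 3000.2 ± 1224 in MPP2 and 2705 ± 605 in MPP3, and Rpl22 had 5324 ± 329, 5613 ± 497 and 5559.9 ± 804. The ratio of Rpl7l1 to Rpl7 differed by 0.01 to 0.10 in size, and none of its adjusted p-values was under 0.756 (exact permutation tests). Rps27rt, a retrogene copy of Rps27, had 731 ± 105 in LT-HSC, 662 ± 158 in MPP2 and 704 ± 181 in MPP3. Rpl39l was found in 6 libraries, with 154 of its 200 reads in KO MPP3 replicate 3 and 32 in KO MPP2 replicate 1.

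Within a genotype no ribosomal protein gene was called by limma in any of the 6 population comparisons. In WT the share of all genes called was 0.833% for MPP2 against LT-HSC, 3.97% for MPP3 against LT-HSC and 0.431% for MPP2 against MPP3, and 3 of the 83 (3.61%) had an unadjusted p under 0.05 in each, against 12.2%, 14.1% and 9.57% of all genes. In KO the shares were 1.2%, 1.91% and 2.79%, with 1, 3 and 3 genes at an unadjusted p under 0.05, against 17.2%, 10.6% and 17.5% of all genes. Rps23, next to the decoding site of the small subunit, had 338, 404 and 588 normalized counts in MPP2 libraries of WT mice. In their LT-HSC libraries it had 207, 184, 313 and 249.9, without overlap. Its difference of 0.88 did not pass (SE 0.30, limma adjusted p = 0.195). KO LT-HSC libraries, at 480.3, 234 and 468, lay partly in the WT MPP2 range.

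Other genes of the translation machinery were called at shares to be read against 7.32% of all genes for MPP2 against LT-HSC, 7.4% for MPP3 against LT-HSC and 6.88% for MPP2 against MPP3. Of 40 ribosome biogenesis genes 2 were called higher in MPP2 than in LT-HSC by limma, Nhp2 (0.63, SE 0.16) and Nop10 (0.42, SE 0.12), both of the H/ACA particles that guide pseudouridylation of RNA. The median of the 40 was 0.20, and none was called in the other population comparisons or in KO against WT. Of 19 further genes with TOP messages, mostly translation factors, Tpt1 was called lower in MPP2 than in LT-HSC (-0.65, SE 0.15), and Vim, an intermediate filament gene, was called higher in MPP3 than in LT-HSC (0.99, SE 0.16) and lower in MPP2 than in MPP3 (-0.80, SE 0.17). None of 18 genes of RNA polymerase I and its factors, and none of 8 tested snoRNA host genes, was called in these comparisons. Of 17 genes of the mTOR pathway Sesn2, an inhibitor of it, was called lower in MPP2 than in LT-HSC (-2.98, SE 0.81).

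Among transcription factors known to act on ribosome genes, 1 of 14 was called in MPP2 against LT-HSC and 3 each in the other population comparisons, beside the same shares of all genes. Myc was called higher in MPP3 than in LT-HSC (0.82, SE 0.18, limma adjusted p = 0.00723). Mycn was called lower in MPP3 than in LT-HSC (-2.79, SE 0.32) and in MPP2 than in LT-HSC (-1.58, SE 0.33). Mxd4, which opposes Myc, was called higher in MPP3 than in LT-HSC (0.75, SE 0.19), and lower in MPP2 than in MPP3 (-1.06, SE 0.20). In MPP2 against MPP3 Mycn (1.205, SE 0.33) and Gabpa (0.46, SE 0.12) were called higher. The median of the 83 ribosomal protein genes in MPP3 against LT-HSC was 0.04. Of 16 genes of dividing cells 9 were called higher in MPP2 than in LT-HSC, where 7.32% of all genes were called, with a median of 0.99, and the median of the 83 there was 0.00046. Of 14 genes of the p53 list Trp53 (0.46, SE 0.12) and Gtse1 (1.36, SE 0.38) were called higher in MPP2 than in LT-HSC. In MPP3 against LT-HSC 3 were called, Pmaip1 and Cdkn1a higher and Eda2r lower. Among those called in MPP2 against MPP3, where 6.88% of all genes were, Pmaip1 (-4.36, SE 0.94), Cdkn1a (-1.77, SE 0.44) and Phlda3 (-2.96, SE 0.77) were lower in MPP2. Outside the symbol pattern, Rpsa, Fau and Rack1 were not called in any of these comparisons, and Rack1 differed by 0.15 (SE 0.08) between MPP2 and LT-HSC.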

How the data were processed

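RNA from sorted mouse bone-marrow cells was made into libraries with the Nextera XT kit, per the labels' protocols. The authors aligned with TopHat2 2.1.1 to GRCm38, counted with HTSeq 0.11.2 and scaled with DESeq, per the submitters' processing notes. Not given in the sources used here are the annotation release, the strand setting and the read length. The deposited values are a normalized signal, counts divided by 1 size factor per library. Dividing by the worth of a single read gave whole numbers within 1e-06 for 100% of values, so reads were recovered. In 2 libraries a single read was worth 1.009 and 1.001, and edgeR was also run on the other 18.

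limma 3.58.1 (R 4.3.3, trend, robust) was fitted to log2(value + 1) for 6 group means over 20 libraries, on the 17160 genes that filterByExpr of edgeR kept. A gene was called where its p, adjusted over all genes by Benjamini and Hochberg, was under 0.05; the added 1 shrinks differences of genes with few reads. Paralog ratios were tested by exact permutation. Alternatives were edgeR 4.0.16, DESeq2 1.42.0, voom, other scalings, pseudocounts and filters, a covariate for the range of library numbers, and libraries left out. The test was tested on simulated data. Replicate numbers follow accession order. Names, coordinates and lengths are from GENCODE M21, matched for 45143 of 45706 identifiers. The file's 5 summary entries were left out; of all entries per library, reads in genes made up 18.5 to 21.4%, reads outside genes 22.9 to 26.7% and alignments that were not unique 52.6 to 57.8%. A principal transcript with a long end lowers a level per length. Some of the genes overlap other genes, and reads of opposite strands cannot be told apart where the counting ignored strand.

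The members and lists were chosen with earlier results of these data known. Genes were named by rule: those called, up to 3 of smallest p in each direction where few were called, a fixed set, the 5 highest and lowest levels, the 5 widest SDs, and up to 3 genes per other list; some of these are not reported here.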

Additional observations from a re-analysis of the deposited data

Results flagged for a closer look

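In groups of 4 libraries, 5 of 44 tests of a named gene or of the summed share found a library far from the other 3; chance gives about 1 in 20. WT LT-HSC replicate 1 accounted for 4. It had the lowest Rpl3 value of its group, 1760.3 normalized counts against 2166 to 2221. It had the lowest Rps9 value, 9582 against 11581 to 11861, and the highest Rpl5 value, 1264 against 611 to 679. Its Rpl3l value of 0.916, from 1 read, stood against 0 in the others; a single library with any read is always set apart in this way, so this value does not bear on the count. WT MPP3 replicate 1 had the highest Rps27a value, 606 against 449 to 459.9.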

How the results depend on the processing

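KO against WT gave 0 called ribosomal protein genes in all 33 settings. The number called over all genes tested changed with the setting too. For KO against WT in MPP2 it ranged from 0 to 338 with 1 library left out. For MPP2 against LT-HSC, where 1 gene was called, 2 were called with DESeq2, voom, TMM scaling, a pseudocount of 16 or the library-number range as a covariate. There 0 were called when scaled by reads outside the 85 genes, with edgeR on 18 libraries or without the libraries numbered 52 to 54. Leaving out 1 library gave 0 to 2. Over all genes tested 1256 were called by limma, 1805 with DESeq2, 1410 with voom and 773 with edgeR on all libraries. With 1 library left out 705 to 1595 were. For MPP3 against LT-HSC 2 were called with DESeq2, voom or without the libraries numbered 52 to 54. With a pseudocount of 16, a mean log2 CPM of at least 3 or edgeR on 18 libraries 0 were called. The leave-one-out range was 0 to 2. Over all genes tested 1270 were called by limma, 1544 with DESeq2, 1462 with voom and 1476 with a pseudocount of 16. For MPP2 against MPP3 1 was called with edgeR on all libraries, DESeq2, a pseudocount of 16 or a mean log2 CPM of at least 3. There 1 was also called without the libraries numbered 52 to 54, 0 with edgeR on 18 libraries, and 0 to 2 with 1 library left out. Over all genes tested 1180 were called by limma, 741 with edgeR on all libraries, 1560 with DESeq2 and 1274 with a pseudocount of 16. With 1 library left out 664 to 1557 were. For MPP3 against LT-HSC in WT 1 was called with voom and 1 with the range covariate, and 0 to 1 with 1 library left out. Over all genes tested 681 were called there by limma and 765 with voom. The Rpl3l to Rpl3 ratio between MPP3 and LT-HSC fell to 0.56 with a pseudocount of 16. With pseudogene entries the summed share was 3.10%. The cause of these changes was not tested, except that settings with fewer libraries or genes test less. Leaving out 1 library moved 6 ratio differences across 0, none of which passed: Rpl22l1 to Rpl22, MPP2 minus MPP3, from -0.10 to 0.20; Rpl36al to Rpl36a, MPP2 minus MPP3, from -0.11 to 0.19; Rpl3l to Rpl3, MPP2 minus LT-HSC, from -0.060 to 0.60. The same held for Rps4l to Rps4x, MPP2 minus LT-HSC, from -0.093 to 0.38, and for Rpl7l1 to Rpl7, from -0.012 to 0.17 for MPP2 minus LT-HSC and from -0.10 to 0.079 for MPP3 minus LT-HSC. The Rps27l to Rps27 difference, MPP2 minus LT-HSC, ranged from 0.54 to 1.17, and that of Rpl3l to Rpl3, MPP2 minus MPP3, from -2.82 to -2.03. Scaling by reads outside the 85 genes moved the median of all genes by under 0.1. No paired analysis was made, because the labels give no replicate number that groups share and name no animal. Libraries 52 to 54, 101 to 103, 115 to 117 and 118 to 120 each hold the 3 populations of 1 genotype. Within each set all libraries had more Xist than Y-linked reads, or all had fewer. Whether a set shares animals is not given, and limma treated all libraries as independent. With the library-number range as a covariate 2, 1 and 2 of the 83 genes were called for MPP2 against LT-HSC, MPP3 against LT-HSC and MPP2 against MPP3. Without the covariate limma called 7.32%, 7.4% and 6.88% of all genes there. Few reads limit Rpl3l, Rpl39l, Rpl24 and Rpl23a.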

Other observations

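Rps4l, a copy of the X-linked Rps4x that is annotated as a transcribed pseudogene and so is not among the 85 genes, had 318 ± 166 normalized counts in WT (SD, n = 11) and 566 ± 241 in KO (n = 9). By population it had 490 ± 243 in LT-HSC, 503 ± 245 in MPP2 and 306 ± 193 in MPP3, where the lowest library was at 0.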
